A study of Capra hircus with 27 samples.

Results

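Gene expression in the lung of goats living at 3000 m was compared with that in the lung of goats living at 600 m, in 6 RNA-seq libraries with 3 per altitude, out of the 27 libraries of the series. The other libraries came from the heart and skeletal muscle of the same populations and from a population at 2000 m. The 600 m goats lived at Ya'an in Sichuan, the 3000 m goats in the A'ba Tibetan area, and the 2000 m goats at Zhaotong in Yunnan. All were about 3 years old, none carried a labelled treatment, and the study describes its animals as unrelated adult females. Each altitude was represented by 1 population, so altitude and population cannot be told apart. Levels were given in FPKM (fragments per kilobase of transcript, scaled to the mapped fragments of the library). Genes were described where the mean over the 6 compared lung libraries was above 0.5 FPKM, which held for 13925 of 22131 genes. The gene just inside this minimum averaged 0.5004 FPKM and the gene just outside it 0.4990 FPKM. Of the 8206 genes left out, 4664 were listed at 0 in all 6 libraries.

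The lung brings air and blood together across the thin alveolar wall. It is the first organ to meet thin air, and its small arteries constrict when alveolar oxygen falls, which raises pressure in the pulmonary circulation. Lung tissue mixes alveolar and airway epithelium, capillary endothelium, smooth muscle, fibroblasts and immune cells. In bulk libraries of this kind, fewer cells of a type and less RNA per cell cannot be told apart. The genes carried identifiers of a goat annotation, of which 0 could be paired with a gene name here. Genes were therefore described by their level, their direction and the tissue in which they were highest, and the tissue label could not be checked against named marker genes. On log2(FPKM + 1) across the genes tested, the mean correlation (Pearson's r) of the 6 lung libraries with their own and the other lung groups ranged from 0.913 to 0.962. With the heart libraries it ranged from 0.697 to 0.728 and with the muscle libraries from 0.670 to 0.701.

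Read totals were not given, so absolute depth is unknown. The smallest values, taken as those of single reads, put the relative depths of the 6 libraries between 0.895 and 1.08, with a residual SD of 0.0530 on the log2 scale. The libraries at 600 m held 61.9%, 61.2% and 60.5% of all genes above 0.5 FPKM, and those at 3000 m held 61.9%, 62.9% and 63.1%. The means were 61.2% ± 0.685 and 62.6% ± 0.640 (SD, n = 3 each), and an exact two-sided permutation test gave p = 0.1, the smallest that 3 libraries against 3 allow. The 10 most abundant genes held 13.5%, 13.3% and 13.1% of the FPKM at 600 m and 10.3%, 11.7% and 22.6% at 3000 m, so that replicate 3 at 3000 m stood apart from the other 5 libraries.

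The direction of the difference between lung at 3000 m and at 600 m followed the level of the gene. Genes at low levels were on balance higher at 3000 m, and genes at high levels were on balance lower. Changes are given as log2 differences, 3000 m minus 600 m, on the log2(FPKM + 1) scale, which understates the change of genes near 0. They were tested in limma with Benjamini-Hochberg adjustment over all 13925 genes, and a gene is said to have passed the test, or to have been called, at an adjusted p of at most 0.05. The 2000 m lung libraries entered this fit so that 9 libraries shared 1 estimate of the spread.

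The test called 397 genes, which is 2.85% of the genes tested. Of these, 102 genes (0.732%) rose at 3000 m and 295 genes (2.12%) fell. At an unadjusted p under 0.05 there were 3714 genes (26.7%). The genes that rose did so by a median of 1.03 on the log2 scale, ranging from 0.62 to 3.43. The genes that fell had a median change of -0.93, ranging from -4.50 to -0.54. A change of at least 2-fold was fitted in 62 of the genes that rose and 123 of those that fell, and a change of at least 4-fold in 12 and 14. All 397 lay in a narrow band of significance, with adjusted p from 0.00701 to 0.04997 and a median of 0.0447 in limma.

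For 4257 genes (30.6%) every library at 3000 m lay above, or every library below, all 3 libraries at 600 m, and all 397 called genes were among them. Of the 4257 genes, 1409 (10.1%) were higher at 3000 m and 2848 (20.5%) were lower. In the deposited values falls thus outnumbered rises both among called genes and among genes that separated without overlap, but this excess was absent under other scalings. Over all genes tested the median change was -0.08. After median-of-ratios scaling, which sets that median to 0.00, 180 genes were called higher and 136 lower, so that rises made up 57.0% of calls in place of 25.7%. The genes without overlap then divided into 2115 higher and 2087 lower. After quantile normalization, which gives every library the same distribution of values, 30 genes were called higher and 13 lower, of which 34 in all were also called in the deposited values, and the genes without overlap divided into 1904 higher and 1948 lower.

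The number of genes called rested on single libraries. Without replicate 1 at 600 m it was 1541, with 393 of the 397 genes among them. Without replicate 2 or replicate 3 at 600 m limma called 0 genes, although 2669 and 2547 genes had an unadjusted p under 0.05. Leaving out replicate 1, 2 or 3 at 3000 m left 12, 19 and 9 genes, and leaving out replicate 1, 2 or 3 at 2000 m left 14, 18 and 3. A fit of the 6 compared libraries alone called 1 gene, with 3332 at an unadjusted p under 0.05. All 397 genes kept their sign in each of the 9 fits that left out 1 library, and 8 genes were called in at least 4 of them.

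Ordering the genes by mean level over the 6 libraries showed the tilt. The 3362 genes at 1 to 5 FPKM had a median change of 0.10, and 47 of them rose while 9 fell. The 5524 genes at 5 to 20 FPKM had a median of -0.09, with 45 that rose and 68 that fell. Above that level nearly all called genes fell. At 20 to 100 FPKM, 8 genes rose and 163 fell of 3319, with a median of -0.23. At 100 to 1000 FPKM, 0 rose and 54 fell of 778, with a median of -0.35. The share of genes called grew with level from 0.344% of the 873 genes at 0.5 to 1 FPKM to 6.94% at 100 to 1000 FPKM, against 2.85% of all genes. Above 1000 FPKM 0 of 69 genes were called. The share of genes with a positive change, called or not, fell along the same bands from 64.1% to 59.3%, 40.8%, 27.5% and 20.7%, and was 18.8% above 1000 FPKM. The genes that rose had a median mean level of 5.93 FPKM (0.680 to 86.7) and those that fell one of 41.3 FPKM (0.836 to 884), against 10.2 FPKM for all genes tested.

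**Figure D1:**
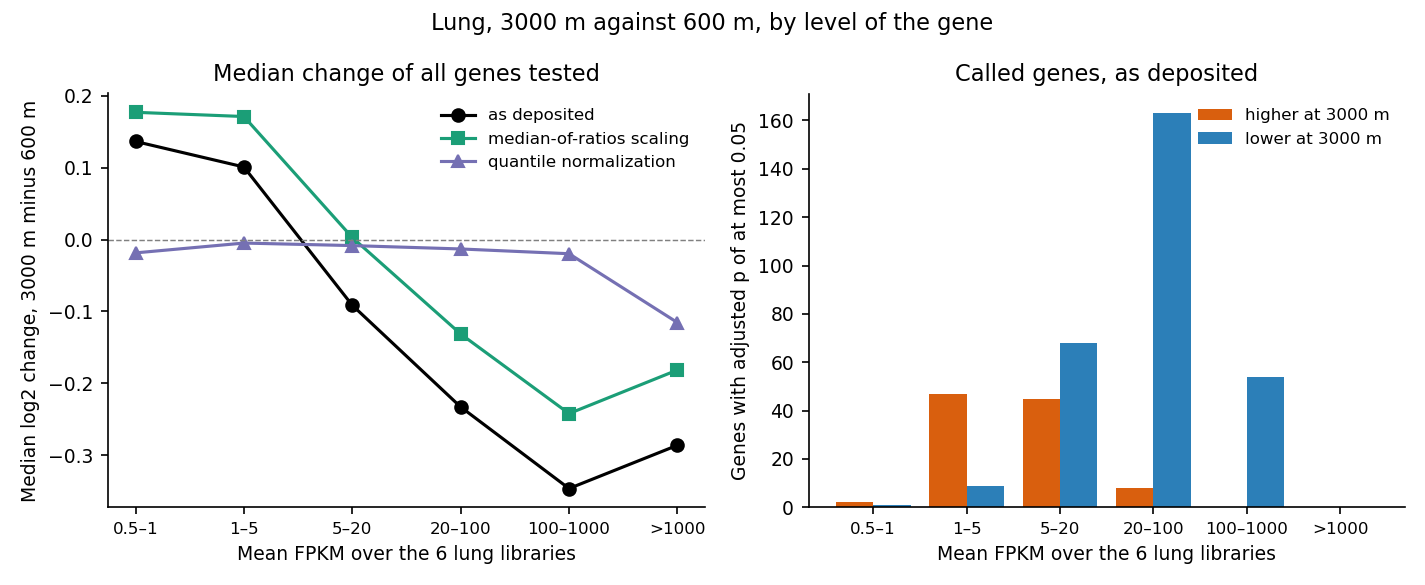
Left, median log2 change in lung (3000 m minus 600 m) by band of mean FPKM over the 6 libraries, in the deposited values and under 2 other scalings. Right, genes called higher or lower at 3000 m per band in the deposited values: medians go from 0.10 at 1 to 5 FPKM to -0.35 at 100 to 1000 FPKM, where 0 genes rose and 54 fell, and quantile normalization flattens the curve.

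This order by level was seen again after median-of-ratios scaling, where the medians were 0.17 at 1 to 5 FPKM and -0.24 at 100 to 1000 FPKM, with 65 rises and 6 falls in the lower band and 1 rise and 22 falls in the higher. Quantile normalization, which by construction equalizes the distributions, brought the medians to -0.00 and -0.02, and 7 rises and 2 falls were then called at 1 to 5 FPKM against 2 rises and 3 falls at 100 to 1000 FPKM. Leaving out any 1 of the 6 libraries moved the medians only between 0.07 and 0.12 in the lower band and between -0.40 and -0.29 in the higher. Thus the tilt did not come from 1 library, whereas the number of called genes did depend on single libraries.

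The tilt was also taken for each library on its own, as its median deviation from the gene means at 100 to 1000 FPKM minus that at 1 to 5 FPKM. In lung this restates the difference between the band medians above, from the same libraries. It shows the spread between libraries and is no second test of the tilt. In lung at 600 m it was 0.23, 0.24 and 0.27 on the log2 scale, and at 3000 m it was -0.27, -0.20 and -0.14. The groups did not overlap, with means of 0.247 ± 0.0246 and -0.205 ± 0.0628 (SD, n = 3 each) and an exact two-sided permutation p = 0.1, the smallest possible. The 2000 m lung libraries took values of -0.09, -0.18 and 0.18 and all lay between these groups or overlapped the 3000 m values. In heart the means were 0.227 ± 0.115 at 600 m and 0.0375 ± 0.00785 at 3000 m, a difference of -0.19 against -0.45 in lung, again with an exact permutation p = 0.1. In muscle the values overlapped, at 0.08 and -0.00 at 600 m, with the alike replicates 1 and 2 averaged, and 0.01, -0.18 and 0.07 at 3000 m. The muscle medians by level fell from 0.07 at 0.5 to 1 FPKM to -0.02 at 1 to 5, -0.17 at 5 to 20 and -0.18 at 20 to 100 FPKM. At 100 to 1000 FPKM the muscle median turned back to -0.10. Above 1000 FPKM the muscle median was 0.30, against the lung order. The heart medians fell through all bands, from 0.18 at 0.5 to 1 FPKM to -0.13 above 1000 FPKM. The tilt is a measure on the FPKM as deposited, and whether RNA quality or library preparation moved with it was not tested.

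**Figure D2:**
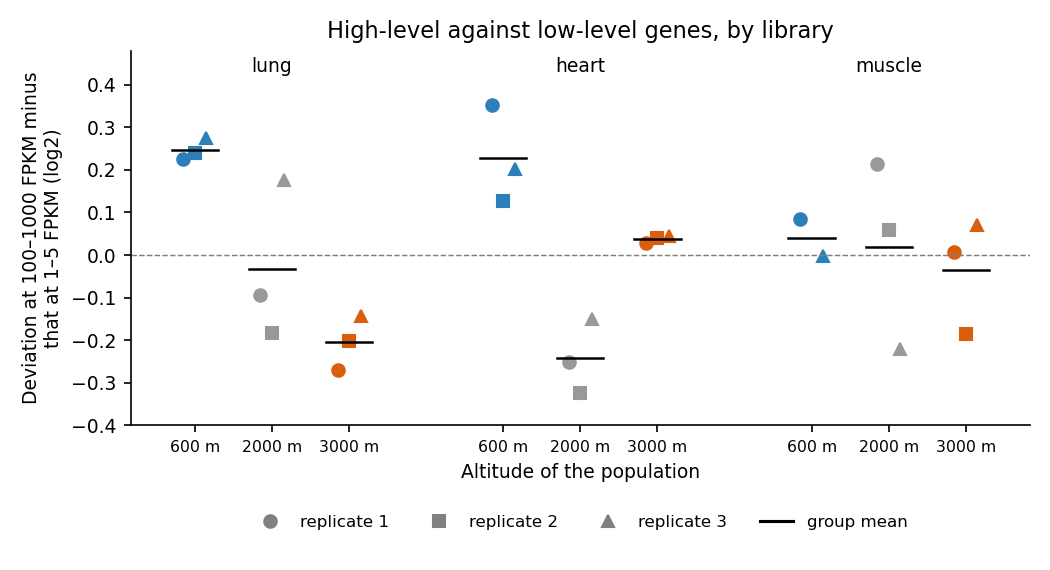
Tilt of each library, the median log2 deviation of genes at 100 to 1000 FPKM minus that of genes at 1 to 5 FPKM, by tissue and altitude, with points for replicates and bars for group means. Muscle 600 m replicates 1 and 2 were averaged. In lung the 600 m libraries sit at 0.23 to 0.27 and the 3000 m libraries at -0.27 to -0.14.

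Among the 365 called genes whose groups did not overlap and whose higher group averaged at least 5 FPKM, the largest rises and falls on the log2 scale were taken as examples. The largest rise was that of GOAT_ENSP00000371394. It was listed at 0, 0 and 4.38 FPKM in the lung at 600 m and measured 25.9, 27.9 and 7.68 FPKM at 3000 m. Each library at 3000 m was above each at 600 m, although replicate 3 of each group came within less than 2-fold of the other. The change was 3.43 (SE 0.67, 95% interval 1.92 to 4.94, adjusted p = 0.0440 in limma). At 2000 m the lung held 27.1, 16.3 and 15.8 FPKM. The gene was listed at 0 in 17 of 18 heart and muscle libraries, the exception being muscle at 3000 m replicate 2 with 2.78 FPKM. It was thus listed above 0 in all lung libraries at the higher altitudes and in 2 other libraries. In heart it was listed at 0 in all libraries and was not tested, so the difference from heart, 3.43, was the lung change itself. It does not show that an expressed gene responded differently in the 2 tissues. This difference missed the threshold (adjusted p = 0.0599 in limma), but passed it with the animal as a block (adjusted p = 0.0276). The difference from muscle was 2.79 (adjusted p = 0.0779, and 0.0471 with the block).

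The second rise was that of GOAT_ENSBTAP00000024444-D2, which measured 2.94, 0 and 0.718 FPKM at 600 m and 16.7, 12.6 and 21.2 FPKM at 3000 m. All libraries at 3000 m were at least 4-fold above all at 600 m. The change was 3.21 (SE 0.56, 95% interval 1.94 to 4.47, adjusted p = 0.0431 in limma), and the 2000 m lung measured 14.0, 12.2 and 3.25 FPKM. In heart the same gene stood at 24817 to 42452 FPKM and in muscle at 1655 to 16486 FPKM, so its level in lung was a trace of that in striated muscle. Its change was not called in heart (adjusted p = 0.682) or in muscle (2.01, adjusted p = 0.121). The change in lung differed from that in heart by 3.06 (adjusted p = 0.0904 in limma), which passed the test with the animal as a block (adjusted p = 0.0400). The 198 genes highest in heart, by the 2000 m libraries, held 0.257%, 0.301% and 0.321% of lung FPKM at 600 m and 0.281%, 0.278% and 0.231% at 3000 m. The 364 genes higher in heart and muscle than in lung held 3.11%, 2.83% and 3.01% at 600 m and 3.16%, 2.80% and 2.52% at 3000 m. The 600 m and 3000 m libraries overlapped in both shares. The 223 genes highest in muscle held 0.306%, 0.347% and 0.321% at 600 m and 0.395%, 0.395% and 0.343% at 3000 m, higher on average at 3000 m with an overlap of 1 library. The part of these shares in the level of this gene was not tested. Its identifier ends in a number that 362 of the tested genes carry in some form. If these mark similar copies, reads could have been divided between them, so its level is uncertain.

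The largest fall was that of GOAT_ENSBTAP00000011146. It measured 27.2, 302 and 235 FPKM at 600 m and 4.64, 7.10 and 2.82 FPKM at 3000 m. The groups did not overlap, but replicate 1 at 600 m was closer to the 3000 m libraries than to the other 600 m libraries. The change was -4.50 (SE 0.78, 95% interval -6.24 to -2.75, adjusted p = 0.0431 in limma), and the 2000 m lung held 35.5, 21.9 and 15.1 FPKM. The same fall was seen in muscle, from 7.36, 7.60 and 26.1 FPKM to 0.0565, 0.106 and 0 FPKM (change -3.85, adjusted p = 0.0130 in limma). In heart it measured 0.398, 41.7 and 35.1 FPKM at 600 m and 0.584, 0.157 and 0.0797 FPKM at 3000 m (change -3.36, adjusted p = 0.0782 in limma), so replicate 1 at 600 m again sat with the 3000 m libraries. The changes in lung and heart differed by -1.14 (adjusted p = 0.797) and those in lung and muscle by -0.65 (adjusted p = 0.870), and neither difference kept its sign with a pseudocount of 0.1 (0.08 and 1.83).

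GOAT_ENSP00000272367 fell from 11.8, 72.6 and 119 FPKM at 600 m to 3.79, 0.958 and 0.843 FPKM at 3000 m. Here too replicate 1 at 600 m was the lowest of its group and lay nearest to 3000 m. The change was -4.23 (SE 0.80, 95% interval -6.02 to -2.44, adjusted p = 0.0440 in limma), and the 2000 m lung measured 8.62, 32.5 and 11.1 FPKM. It was lower in the other tissues, at 0.0651 to 12.3 FPKM in heart and 0.0269 to 3.94 FPKM in muscle. Its changes there were -1.78 in heart (adjusted p = 0.139 in limma) and -1.31 in muscle (adjusted p = 0.141).

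The lung change of all 4 genes kept its direction in every alternative run. Each was called in the fit without replicate 1 at 600 m. In the other 8 fits that left out 1 lung library the adjusted p ranged from 0.0571 to 0.153 in limma, so that none of the 4 passed the test. With the 6 compared libraries alone it was 0.104 for each.

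**Figure D3:**
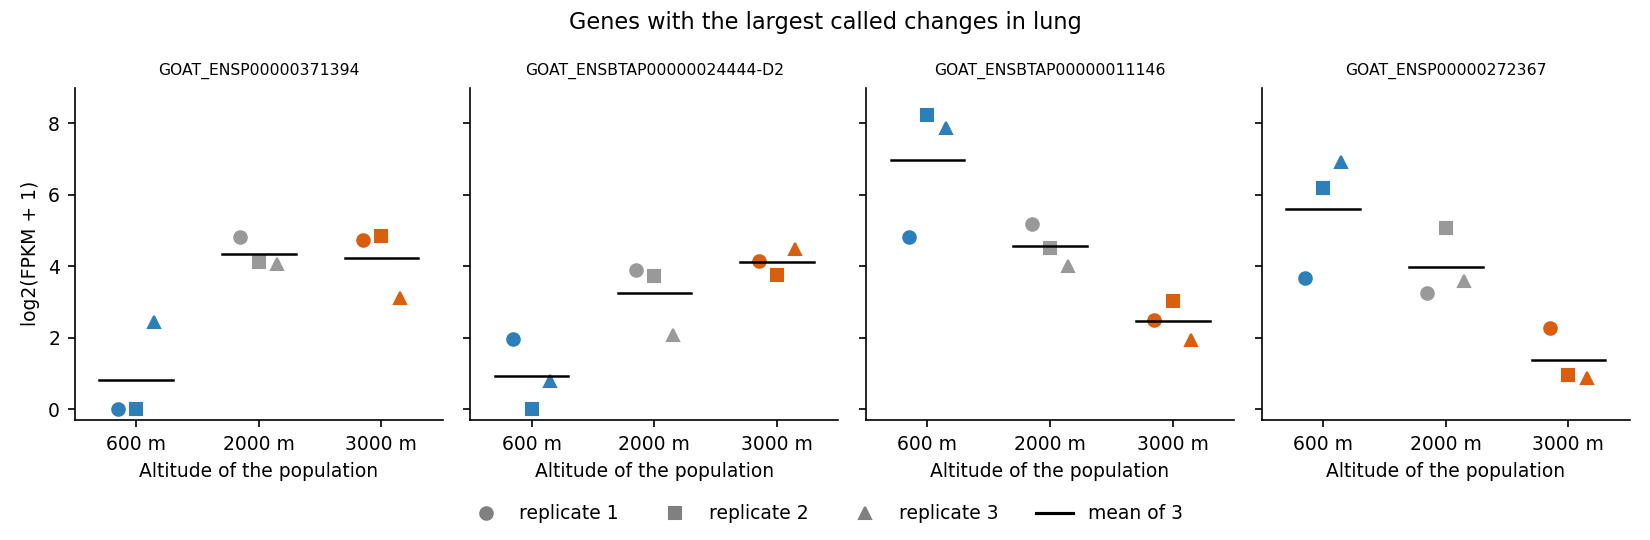
Level in each lung library, as log2(FPKM + 1), of the 4 genes with the largest called rises and falls, by altitude, with 1 point per library and bars for the mean of 3. The 600 m and 3000 m libraries do not overlap in any panel, and in both genes that fell replicate 1 is the lowest of the 600 m libraries.

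The most abundant transcripts of the lung were on balance lower at 3000 m. Of 69 genes above 1000 FPKM, 56 had a negative change and 13 a positive one. None of the 69 was called in limma, the lowest adjusted p being 0.0503, and 17 had an unadjusted p under 0.05, of which 12 were lower at 3000 m. Among these abundant genes, 6 had a fitted change of at least 4-fold, 4 of them higher and 2 lower at 3000 m. They were singled out after their values were seen. Of these 6 genes, 4 were at least 4-fold higher in lung than in heart and muscle at 2000 m.

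The second most abundant gene of the lung measured 4062, 201 and 164 FPKM at 600 m and 3570, 3610 and 60212 FPKM at 3000 m. Replicate 3 at 3000 m was more than 10-fold above each of the other 5 compared libraries, and replicate 1 at 600 m lay within the 3000 m group. The 2000 m lung held 2824, 4443 and 11424 FPKM. The change was 4.16 (SE 1.38, adjusted p = 0.102 in limma). The gene ranked 11 by level measured 838.5, 28.5 and 21.1 FPKM at 600 m and 1602, 1721 and 16911 FPKM at 3000 m (change 5.46, SE 1.35, adjusted p = 0.0560 in limma). Replicate 3 at 3000 m was again far the highest and replicate 1 the highest at 600 m, but here replicate 1 lay below all 3000 m libraries. In the opposite direction, the gene ranked 50 measured 2.06, 4385 and 3140 FPKM at 600 m and 1.39, 4.996 and 0 FPKM at 3000 m (change -7.16, SE 2.29, adjusted p = 0.0926 in limma). Replicate 1 at 600 m was thus at the level of the 3000 m libraries, while the other 600 m libraries were above 3000 FPKM. In heart the same gene measured 9.92, 5983 and 4723 FPKM at 600 m, with replicate 1 again apart. In muscle at 600 m it measured 2734, 2254 and 3605 FPKM, where replicate 1 was not apart. Muscle replicates 1 and 2 at 600 m were so alike that they count as 1, so replicate 1 there says little of its own. The lung at 2000 m held 2143, 1682 and 1085 FPKM. At 3000 m the gene ranked 50 measured 0, 1.84 and 0 FPKM in heart and 0, 1.38 and 0 FPKM in muscle. The gene ranked 29 measured 734, 3287 and 5441 FPKM at 600 m and 376, 493 and 330 FPKM at 3000 m (change -2.58, SE 0.61, adjusted p = 0.0518 in limma). In all 6 of these genes replicate 1 was the 600 m library nearest to the mean of the 3000 m libraries.

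That position of replicate 1 at 600 m held across the transcriptome. Its mean correlation with the other 600 m lung libraries was 0.943, below its values of 0.948 with the 3000 m group and 0.952 with the 2000 m group. The 3000 m libraries likewise correlated better with the 2000 m group, at 0.955, 0.954 and 0.950, than with their own. Replicates 2 and 3 at 600 m correlated better with their own group, at 0.962 and 0.957, than with the 3000 m group, at 0.925 and 0.913. The 3000 m libraries correlated with their own group at 0.951, 0.949 and 0.943 and with the 600 m group at 0.943, 0.931 and 0.913. Replicate 1 was the 600 m library nearest to the 3000 m mean for 6523 genes (46.8%), against 3916 for replicate 2 and 3486 for replicate 3. Among the 397 called genes this count was 271 (68.3%), against 67 and 59. Set between the 3000 m mean at 0 and the mean of the other 600 m libraries at 1, the median position of replicate 1 was 0.52 over all genes. Over the called genes it was 0.76. The called genes were picked from these same libraries, so their share and position are no separate support for that of all genes. Replicates 2 and 3 at 600 m stood at 0.96 and 1.09 over all genes. Placed likewise between the 600 m mean at 0 and the other 3000 m libraries at 1, replicates 1, 2 and 3 at 3000 m stood at 0.67, 0.74 and 0.91.

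**Figure D4:**
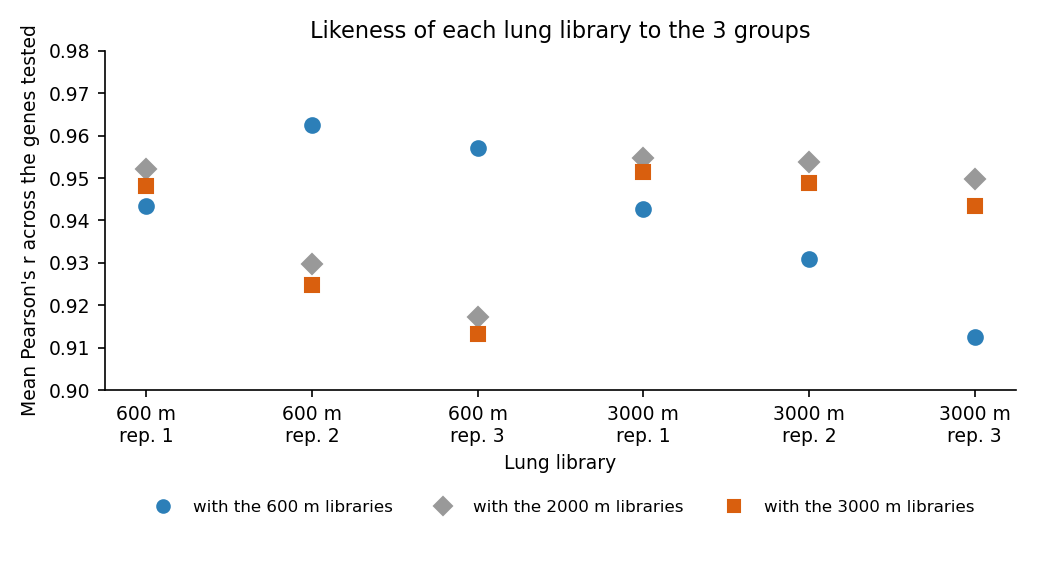
Mean Pearson's r of each lung library at 600 m and 3000 m with the other lung libraries of each altitude group, on log2(FPKM + 1) across the genes tested. Replicate 1 at 600 m is the library of its group with the lowest mean r within 600 m (0.943) and the highest with 3000 m (0.948).

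The heart library labelled 600 m replicate 1 showed the same position. For the 361 genes called in lung and also tested in heart, it was the 600 m heart library nearest to the 3000 m heart mean in 235 (65.1%), against 73 and 53 for the other two. Over all 11764 genes tested in both tissues this count was 4674 (39.7%). The median SD of log2(FPKM + 1) in lung was 0.223 at 600 m and 0.245 at 3000 m. Of the 9690 genes above 5 FPKM, 980 (10.1%) spanned at least 2-fold among the 600 m libraries and 1229 (12.7%) among the 3000 m libraries.

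Genes were then grouped by the tissue in which they were highest, using the 2000 m libraries alone. Only genes with a mean above 0.5 FPKM over the 6 compared lung libraries were counted, so the counts do draw on those libraries. A class held the genes at least 4-fold higher in 1 tissue than in both of the others, on the log2(FPKM + 1) scale. Against 600 m, the 2000 m lung changed with the same sign as the 3000 m lung in 11308 of the 13925 genes. The lung class could therefore favour genes that were higher at 3000 m, and how far it did so was not tested. Of the 1366 genes highest in lung, 15 rose and 30 fell, or 3.29% called against 2.85% of all genes tested, and their median change was 0.05. The 12060 genes without a 4-fold preference in any such class had a median of -0.10, with 75 that rose and 255 that fell (2.74%). The 137 genes highest in heart gave 7 calls (5.11%), of which 6 rose, and the 269 genes higher in both heart and muscle than in lung gave 15 (5.58%), of which 7 rose and 8 fell. Of the 135 genes highest in muscle 2.22% were called, below the share of all genes. These are descriptions of small counts and were not tested. The minimum in lung kept 137 of the 198 genes highest in heart, 135 of the 223 highest in muscle and 269 of the 364 higher in both. Such genes, low in lung, could pass the minimum through the altitude group in which they were high.

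The lung class as a whole made up more of the 3000 m libraries. It held 17.4%, 16.2% and 16.2% of all FPKM at 600 m and 19.98%, 19.95% and 29.3% at 3000 m. The highest value was that of replicate 3 at 3000 m, in which the second most abundant gene reached 60212 FPKM. Among genes at or below 1000 FPKM the shares were 18.5%, 16.9% and 17.3% at 600 m and 18.6%, 20.5% and 20.6% at 3000 m, so that the groups still did not overlap but replicate 1 of each group differed by little. By the form of the identifier, 33 of 1093 genes whose identifier began with goat_GLEAN were called (3.02%), of which 15 rose and 18 fell. Of 6567 genes with GOAT_ENSBTAP identifiers 199 were called (3.03%), with 41 that rose, and of 6265 with GOAT_ENSP identifiers 165 were called (2.63%), with 46 that rose. The goat_GLEAN genes had a lower median level, at 4.60 FPKM against 10.8 FPKM and 10.6 FPKM for the other two kinds.

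The genes that changed in lung were set beside the same comparison in heart and in skeletal muscle, made from other libraries of the same populations. Tissues with the same replicate number deviated together in lung and heart, so the heart libraries are not independent animals. Of the 102 genes that rose in lung, 77 were tested in heart and 42 of these (54.5%) were called there, all higher at 3000 m, with a median heart change of 0.58. Of the 295 that fell, 284 were tested and 98 (34.5%) were called, 97 of them lower, with a median of -0.51. In heart 1397 of 12159 genes (11.5%) were called in all. In muscle, 10 of 81 genes (12.3%) that rose in lung were called and 39 of 285 (13.7%) that fell, all in the direction seen in lung, against 251 of 11868 genes (2.11%) over the whole tissue. The 140 genes called in both lung and heart were 35.3% of the lung calls and 10.4% of the heart calls among genes tested in both. The 49 genes called in both lung and muscle were 12.3% of the lung calls and 21.2% of the muscle calls. In all, 27 genes were called in all 3 tissues.

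**Figure D5:**
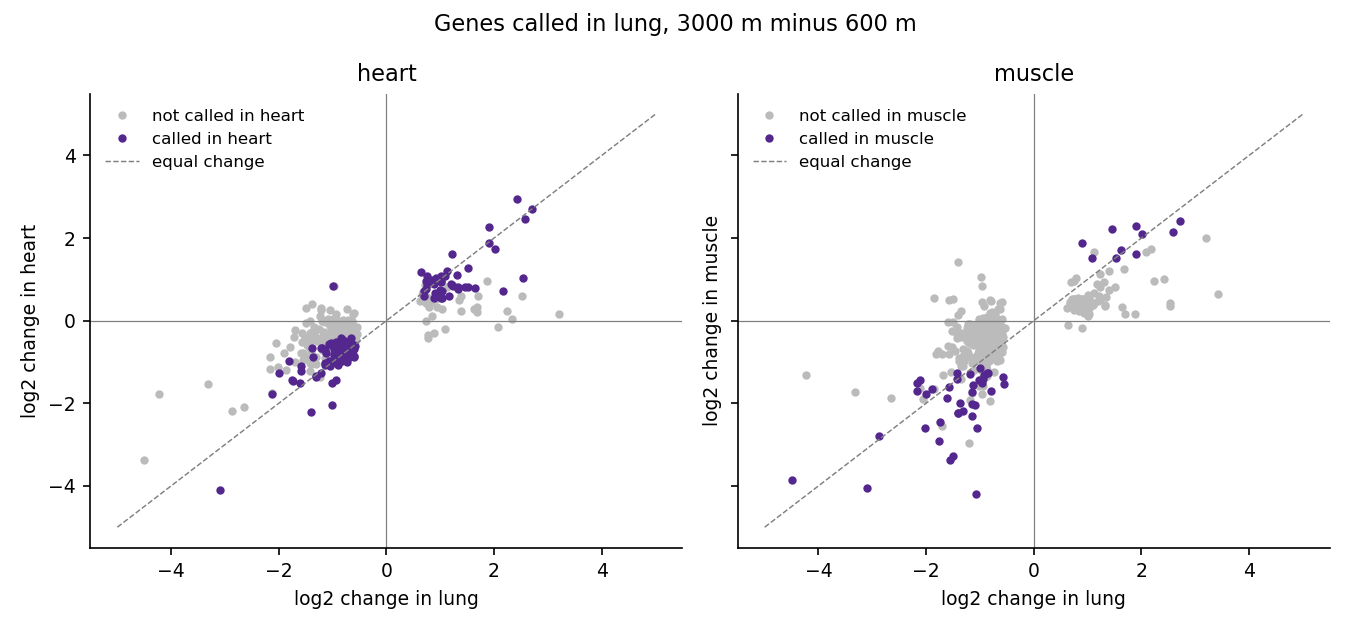
Log2 change (3000 m minus 600 m) in heart (left) and muscle (right) against that in lung, for genes called in lung and tested in the other tissue, with 1 point per gene, darker where the gene was also called there, and a dashed line of equal change. Genes that rose in lung had a median of 0.58 in heart and 0.39 in muscle, and those that fell one of -0.51 and -0.57.

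A call in lung without one in heart does not show that the tissues differ, so the difference of the changes was tested in limma over all libraries. The change in lung differed from that in heart for 24 genes (0.172% of those tested), with 1691 genes (12.1%) at an unadjusted p under 0.05. In 13 of the 24 the change was more positive in lung and in 11 more negative, with a median absolute difference of 1.36 on the log2 scale. The change was larger in lung in 22 of them, and 21 were called in lung against 3 in heart. The genes were picked for their difference and had to pass the minimum in lung only. Of the 13925 genes, 11764 were also tested in heart, and genes near 0 there could change little. These counts therefore do not show that lung responded more. Since same-numbered lung and heart libraries deviated together, the fit with the animal as a block is given beside it, and it called 114 genes. Without replicate 1 at 600 m the count was 298, and without replicate 1 or 2 at 3000 m it was 129 and 64.

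The change in lung differed from that in muscle for 211 genes (1.52%), with 2328 genes (16.7%) at an unadjusted p under 0.05. These divided into 96 genes more positive in lung and 115 more negative, with a median absolute difference of 1.39. With the animal as a block the count was 432, same-numbered lung and muscle libraries having deviated together at 3000 m but not in all pairs at 600 m. The fitted change was larger in lung in 70 of the 211, and 33 were called in lung against 59 in muscle. The genes were picked for their difference, and muscle at 600 m counted fewer libraries, so its changes were less precise. Here too the minimum was set in lung, and 11441 of the 13925 genes were also tested in muscle. Which tissue the difference came from was not tested. The changes had opposite signs in the tissues in 150 of them. Without replicate 1, 2 or 3 at 600 m the count was 466, 98 and 115, and without replicate 1 or 2 at 3000 m it was 342 and 132.

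The lung of the 2000 m goats was set beside these values against the same 600 m libraries, so that both comparisons share their controls and are not independent. For the genes that rose at 3000 m the median change was 1.03 at 3000 m and 0.96 at 2000 m. For the genes that fell it was -0.93 at 3000 m and -0.73 at 2000 m, and over all genes tested it was -0.08 and -0.05. Of the examples above, GOAT_ENSP00000371394 had a change of 3.52 at 2000 m (adjusted p = 0.0386 in limma). GOAT_ENSBTAP00000024444-D2 had one of 2.32 (adjusted p = 0.0489). The examples that fell at 3000 m were not called at 2000 m, with -2.41 for GOAT_ENSBTAP00000011146 (adjusted p = 0.0860) and -1.62 for GOAT_ENSP00000272367 (adjusted p = 0.210).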

How the data were processed

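Lung, heart and muscle RNA of goats was sequenced from strand-specific (dUTP) libraries. Per the labels, reads were aligned with TopHat2 2.0.11 and quantified with Cufflinks 2.2.1, and the study names the CHIR_1.0 goat genome. How the 2000 m libraries were processed is not given in the sources used here. The authors deposited 1 table of log2(FPKM + 1) for 27 libraries, in which FPKM scales by library size and transcript length and leaves differences in RNA composition in place. Values were used as deposited and turned back to FPKM for levels.

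The study used Cuffdiff, which needs read files. Changes were here tested with limma 3.58.1 (R 4.3.3), with a mean-variance trend, two-sided, over the 9 lung libraries for genes above a mean of 0.5 FPKM, and differences between tissues over all libraries. The scripts were tested on simulated data. Examples were the 2 largest rises and 2 largest falls among called genes without overlap and with at least 5 FPKM in the higher group. The genes and groupings were chosen with earlier results of these data known. The study describes 3 unrelated females per population at 600 m and 3000 m. For 2000 m neither the labels nor the study say that replicates were separate animals. Muscle 600 m replicates 1 and 2 differed by a robust SD of 0.0849 (log2), against 0.193 to 0.471 in the other 26 replicate pairs, and were averaged and counted as 1.

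Same-numbered lung and heart libraries had correlated deviations from their group means (0.243 to 0.453 at 600 m and 0.153 to 0.252 at 3000 m), which pairs them. For lung and muscle these were -0.0649 to 0.263 at 600 m and 0.158 to 0.194 at 3000 m. Alternatives were other scalings, filters, pseudocounts, variance models and leaving out each library. Median changes by level under other scalings, and without single libraries, were added after seeing the data.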

Additional observations from a re-analysis of the deposited data

Results flagged for a closer look

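The change between 3000 m and 600 m differed between lung and heart for 24 genes and between lung and muscle for 211 genes, by an interaction test in limma at an adjusted p of at most 0.05. Both were singled out because the same comparison gave different changes in different tissues. Leaving out 1 lung library moved the counts between 16 and 298 for heart and between 98 and 466 for muscle. All these fits took the libraries as independent. In a fit of all libraries with the animal as a block, the counts were 114 for heart and 432 for muscle. The part of tissue composition was not tested.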

How the results depend on the processing

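The count of 397 called lung genes was 1 with the 6 compared libraries alone, 209 without a filter on low values, 43 after quantile normalization, 212 without a mean-variance trend, 2166 with array weights, 2 with the replicate number as a block and 1863 at an adjusted p of at most 0.1. It ranged from 0 to 1541 when 1 lung library was left out. A pseudocount of 0.1 gave 435 and a minimum of 1 FPKM 521. Lung libraries at 600 m and 3000 m share only a number, since their same-numbered deviations correlated at -0.111 to 0.0569, so the block is no pairing here. Of the 4 example genes, 0 were called with the 6 libraries alone, after quantile normalization and with the replicate block (adjusted p 0.0766 to 0.0777 in limma), 2 without a filter, and 0 to 4 when 1 library was left out. The direction of their lung changes did not change. With a pseudocount of 0.1 the differences of GOAT_ENSBTAP00000011146 turned from -1.14 to 0.084 (lung minus heart) and from -0.65 to 1.83 (lung minus muscle), neither called. The count of 24 genes that differed between lung and heart was 39 with both alike muscle libraries kept, 6 with a pseudocount of 0.1 and 114 with the animal as a replicate block, and ranged from 16 to 298 when 1 lung library was left out. The count of 211 for lung and muscle was 413 with both alike muscle libraries and 432 with the replicate block, and ranged from 98 to 466 when 1 lung library was left out. The count of 4257 genes without overlap ranged from 5075 to 6798 when 1 library was left out, since fewer libraries overlap less. The median change at 1 to 5 FPKM turned from 0.10 to -0.0049 after quantile normalization. Where the construction of an alternative does not show it, the cause was not tested. Absolute depth is unknown, so no detection limit can be given for low genes.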
